A study of Homo sapiens with 3 samples.

Results

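The tripartite motif (TRIM) family of ubiquitin ligases was examined in HT29, an established line of human colorectal adenocarcinoma. Members were taken from the platform annotation as every gene whose symbol is TRIM followed by a number, measured by a probe set annotated to that gene alone. This gave 55 genes, read by 128 probe sets, of the 19777 genes on the array. A gene was kept when its brightest probe set had an average over the groups above 5.13 (log2), the median value of the non-control probe sets, and 42 TRIM genes and 12444 genes in all passed. The rule itself uses the level and the annotation, not the difference between conditions, although the family was picked with results of these arrays known.

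The cells had been transduced by lentivirus, either with an empty vector or with a construct for expression of miR-146a. There was 1 array of the vector cells and there were 2 of the miR-146a cells, named replicate 1 and replicate 2 in the titles. The labels do not say whether the replicates are separate cultures, so their spread may be technical; the vector has a single array. The labels name no clone and no promoter for the construct. The mature microRNA, as RefSeq gives it on build GRCh38.p14, lies on the plus strand at chr5:160485372-160485393, and its seed, bases 2 to 8, is in capitals because it is the part that pairs with target transcripts.
hsa-miR-146a-5p: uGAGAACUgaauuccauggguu
Seed matches in TRIM transcripts were not searched, as no transcript sequences were used here.

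TRIM proteins share a RING finger, which recruits an E2 enzyme carrying ubiquitin, 1 or more B-boxes and a coiled coil through which they pair, while the C-terminal domain picks the substrate. Several are induced by interferon and act against viruses, either by binding viral components or by attaching ubiquitin to sensors and adaptors of innate immunity. Others act on chromatin, the cytoskeleton or protein turnover.

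Most of the family lay close to the vector, and 5 of the members above the filter stood furthest from it. TRIM21, TRIM26 and TRIM32 read 1.33-fold to 1.38-fold higher in the miR-146a arrays, and TRIM59 and TRIM52 read 1.34-fold and 1.32-fold lower. No TRIM gene passed limma with Benjamini-Hochberg adjustment over all genes at 0.05, and neither did any other gene (0% of 12444). This count says nothing of the size of the differences: on simulated data with as many equal replicate values, the same fit recovered none of the changes put in. Unadjusted, 15 of the 42 TRIM genes had p under 0.05 in limma (35.7%, against 23.6% of all genes). Without TRIM36 and TRIM50, which passed the filter through the vector array alone, it was 13 of 40 (32.5%). Several of these genes, such as TRIM28, had equal replicate values, which gave a limma standard error of only 0.00747. Of the 42 members 20 lay above the vector in both miR-146a arrays (47.6%, against 40.2% of all genes above the filter) and 11 were lower in both (26.2%, against 28.8%). The members' median log2 difference was 0.04, beside 0.01 over all genes. With the filter at percentile 70, which kept 29 members and 8938 genes, the median was 0.10 against 0.02, with 18 members higher in both arrays (62.1%, against 44.1%) and 6 lower (20.7%, against 30.1%). At the filter used, both shares lay near those of all genes, so these counts are no result about the family.

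**Figure D1:**
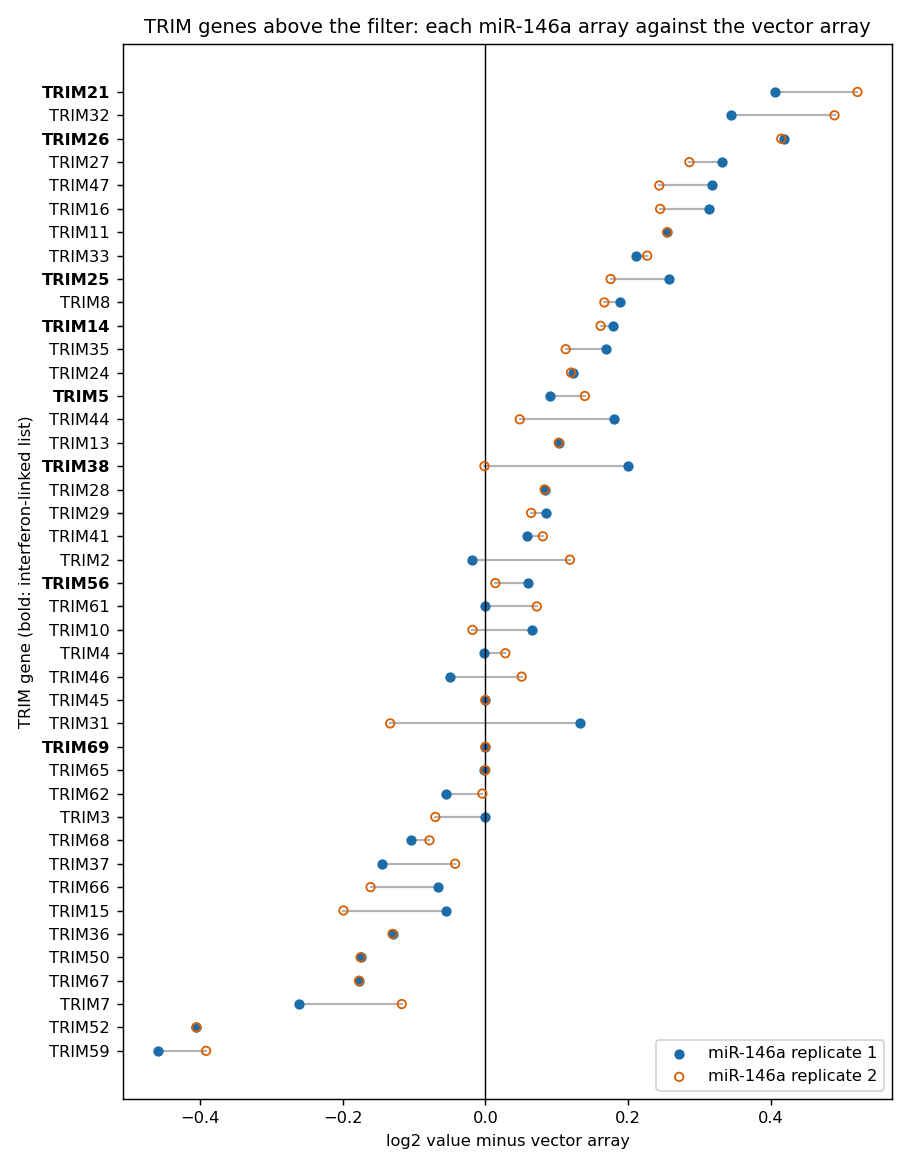
Each row is 1 of the 42 TRIM genes above the filter and each point is 1 miR-146a array, placed by its log2 value minus that of the vector array. TRIM21, TRIM32 and TRIM26 lie furthest to the right and TRIM52 and TRIM59 furthest to the left, with both arrays on the same side of 0.

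The test has 1 residual degree of freedom, and it was strongly shaped by ties: 8 of the 42 members, and 1610 of the 12444 genes, held exactly equal values in both miR-146a arrays (tolerance 0). With the variance prior estimated from genes whose replicate values differ, limma called the same 5 members, namely 3 higher (7.14% of members, against 4.76% of all genes) and 2 lower (4.76% of members, against 2.36%). With a robust prior it called 6 members (14.3%, against 5.1% of all genes): TRIM11, TRIM26, TRIM36, TRIM50, TRIM52 and TRIM67. All of these except TRIM26 had equal replicate values. TRIM36 and TRIM50 passed the filter through the vector array alone, where they are higher; without them the robust prior called 4 of 40 members (10%), and 9 of 40 were lower in both arrays (22.5%). On the simulated data with ties the robust prior also recovered none of the changes, while the prior from unequal replicates recovered most. The simulated spread was itself drawn from the genes with unequal replicate values. Recovery by that prior was therefore built in and is no support for its calls. The robust prior made 0 calls in that simulation but called 635 genes on the arrays, so the simulation did not reproduce these data. By size alone, a rule added after the values were seen, the 3 higher and 2 lower genes were at least 1.25-fold from the vector in both arrays. So were 3.79% of all genes upward and 1.95% downward. With the prior from unequal replicates the members' standard errors ran only from 0.0855 to 0.11. That test is thus close to a cut by size, and the overlap of the 2 rules is no second support. Each of these tests takes the vector array to vary like the miR-146a arrays.

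**Figure D2:**
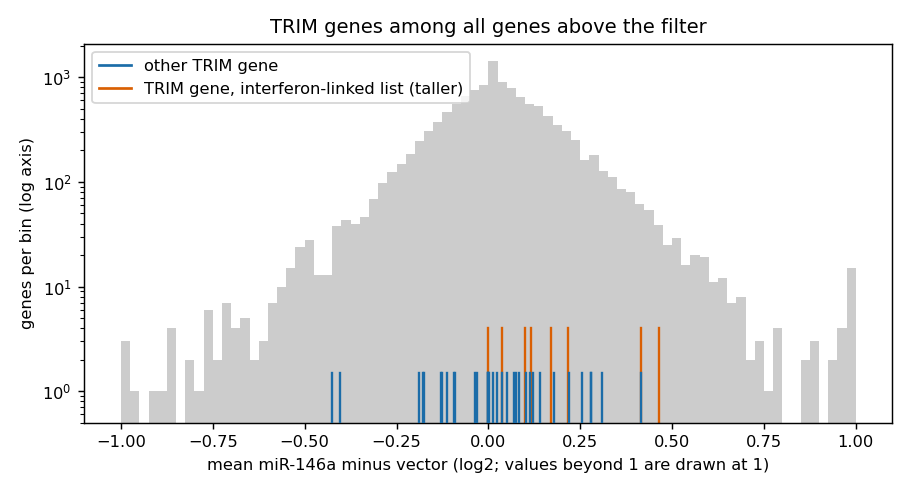
The grey histogram counts all 12444 genes above the filter by their mean log2 difference from the vector (log vertical axis), and the ticks mark the 42 TRIM genes, with taller ticks for the interferon-linked list. The TRIM genes span -0.42 to 0.46, inside the range of all genes from -1.35 to 2.16.

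The interferon-linked TRIMs lay mostly above the vector. The list held 10 genes known to be induced by interferon or to act in antiviral sensing; as the list was drawn up with results of these arrays known, its direction is not independent evidence. Of its 8 members above the filter 6 were higher in both miR-146a arrays (75%, against 40.2% of all genes) and 0 were lower in both (against 28.8%). Their median difference was 0.14. None passed limma over all genes, and 2 of the 8 had an unadjusted p under 0.05, a share near the 23.6% of all genes. TRIM21 and TRIM26 passed with the prior from unequal replicates, as did 4.76% of all genes upward.

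TRIM21, the cytosolic receptor for antibody Fc that sends antibody-coated virus to the proteasome, read 6.12 with the empty vector, and 6.53 and 6.64 with miR-146a. Both miR-146a values lay above the vector, by 0.41 and 0.52. The miR-146a mean was 6.59 ± 0.08 (SD, n = 2) and the mean difference 0.46, with a limma standard error of 0.0806 (adjusted p = 0.212, or 0.0118 with the prior from unequal replicates). TRIM26, a ligase with reported roles in antiviral signalling that is encoded among the MHC class I genes, read 7.44 in the vector array and 7.86 in each miR-146a array. Its replicates were nearly equal, and its difference of 0.42 had a limma standard error of 0.00792 (adjusted p = 0.118, or 0.0145 with the prior from unequal replicates). Each of these genes was read by 1 probe set only, so no other probe set bears on them.

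TRIM22, an interferon-induced ligase that restricts several viruses, was not among the genes tested. Its only probe set averaged 4.82, below the filter. It read 4.56 with the empty vector, and 4.94 and 5.21 with miR-146a, a mean difference of 0.51. That difference exceeded the SD of its replicates, 0.19, but at this signal no detection call separates it from background.

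**Figure D3:**
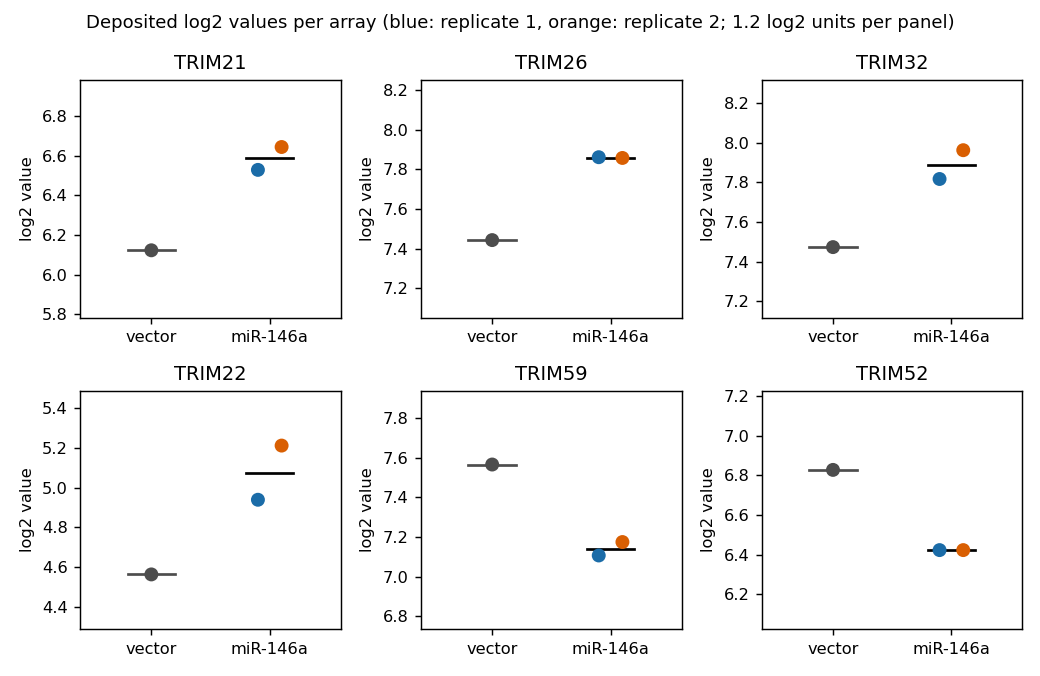
Deposited log2 values of 6 TRIM genes, with 1 point per array and horizontal bars at the vector value and at the mean of the 2 miR-146a arrays; every panel spans the same 1.2 log2 units. In TRIM21, TRIM26, TRIM32 and TRIM22 both miR-146a points lie above the vector, and in TRIM59 and TRIM52 both lie below it.

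The other interferon-linked members lay closer to the vector. TRIM25, which attaches ubiquitin to the RNA sensor RIG-I and serves as a cofactor of the antiviral protein ZAP, read 9.27 with the empty vector, and 9.53 and 9.45 with miR-146a. Its second probe set disagreed, at -0.22 in replicate 1 and 0.10 in replicate 2. TRIM14, a mitochondrial adaptor without a RING finger, read 8.40 with the empty vector, and 8.58 and 8.56 with miR-146a. The remaining TRIM14 probe sets above the filter differed by 0.00 and 0.06. TRIM5, the capsid-binding restriction factor of retroviruses, read 7.54 with the empty vector, and 7.63 and 7.68 with miR-146a. Its other set, below the filter, was at -0.10, and averaging both left 0.0062. For these 3 genes the mean differences were 0.22, 0.17 and 0.11, with limma adjusted p-values of 0.288, 0.14 and 0.318.

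TRIM38, a negative regulator of inflammatory signalling, differed by 0.20 in replicate 1 and by -0.00 in replicate 2, so its arrays did not settle on a direction. All 4 of its probe sets above the filter had positive mean differences, from 0.04 to 0.28. TRIM56, an RNA-binding antiviral ligase, differed by 0.04 in the probe set used and by 0.27 in its other one. TRIM69 read 7.05 in all 3 arrays to the printed digits, and its second probe set above the filter differed by -0.15. TRIM34 had no probe set of its own: the 2 sets it shares with its readthrough transcript differed by -0.17 (above the filter) and -0.28 (below it).

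Promoters were searched for the core repeat that interferon regulatory factors bind, written as GAAA, a gap of any 2 bases, and GAAA, on either strand, from 250 bases before to 50 after each RefSeq start (GRCh38.p14). Of the 55 members 43 had such a window, and 8 of them held a match (18.6%), against 4.38% of the 27305 genes in the table. Among members above the filter 8 of 32 held a match (25%), against 3.63% of 10059 genes above the filter. The longer form GGAAA, the same gap and GAAACT, also on either strand and containing the core repeat, was in 0 member windows and in 0.154% of genes of the table. No window was given for TRIM22. Of the 8 interferon-linked members with a window 5 held a match of the core repeat (62.5%), while TRIM25, TRIM38 and TRIM56 held none.

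The windows that follow are printed because 5 of the 8 matches fell in interferon-linked members; capitals mark the match, each run is 30 bases, and all are written along the gene's own strand. TRIM21 and TRIM26 each held a pair of overlapping matches, giving a run of 16 bases. TRIM21 lies on the minus strand at chr11:4393663-4393692, just after the start, and TRIM26 on the minus strand at chr6:30213578-30213607. TRIM14 (minus strand, chr9:98119229-98119258), TRIM5 (minus strand, chr11:5685082-5685111) and TRIM69 (plus strand, chr15:44736456-44736485) held 1 each.
TRIM21: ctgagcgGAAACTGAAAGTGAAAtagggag
TRIM26: cgcctgaTTTCAGTTTCCATTTCgctgccc
TRIM14: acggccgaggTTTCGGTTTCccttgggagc
TRIM5: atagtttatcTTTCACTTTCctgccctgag
TRIM69: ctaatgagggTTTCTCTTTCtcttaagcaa
In TRIM26, TRIM14, TRIM5 and TRIM69 the repeat reads on the opposite strand, as TTTC. The mean differences of these genes ran from 0.46 for TRIM21 to -0.00 for TRIM69. TRIM2, TRIM16 and TRIM44, which are not on the interferon-linked list, held the other 3 matches and differed by 0.05, 0.28 and 0.11. A match describes these letters only and does not show binding.

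The members that act on chromatin carry a PHD finger and a bromodomain. All 4 were above the filter, and 3 were higher and 1 lower in both arrays, beside 40.2% and 28.8% of all genes. TRIM33, which acts on SMAD proteins of TGF-beta signalling, read 9.17 with the empty vector, and 9.38 and 9.40 with miR-146a. Its 4 probe sets did not agree, with mean differences from -0.11 to 0.27. TRIM24, a coregulator of nuclear receptors, differed by 0.12, and in a further set above the filter by 0.14. TRIM28, the corepressor (KAP1) recruited by KRAB zinc finger proteins, read 11.46 in the vector array and 11.54 in both miR-146a arrays. TRIM66, a relative without a RING finger, differed by -0.11, and its other probe set above the filter by -0.08. None of the 4 passed limma over all genes or with either other prior, and 3 had an unadjusted p under 0.05, beside 23.6% of all genes. Of these 3, TRIM28 had equal replicate values and TRIM24 nearly equal ones (SD 0.0015). Their limma standard errors were therefore small, at 0.00747 and 0.00761. With the prior from unequal replicates their adjusted p-values were 0.682 and 0.49, and that of TRIM33 was 0.163.

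TRIM32 had the highest difference in the NHL-repeat class, whose C-terminal propellers bind RNA or protein partners. TRIM32, mutated in a limb-girdle muscular dystrophy, read 7.47 with the empty vector, and 7.82 and 7.96 with miR-146a. A further probe set, also above the filter, read 5.19 in the vector array and 5.60 in both miR-146a arrays. The probe sets agreed in direction and size, each with a mean difference of 0.42. In the set used, the miR-146a mean was 7.89 ± 0.10 (SD, n = 2) and the limma standard error was 0.101 (adjusted p = 0.27, or 0.0211 with the prior from unequal replicates). TRIM2 and TRIM3, neuronal relatives, differed by 0.05 and -0.04, and TRIM71, a stem cell factor, was below the filter.

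TRIM59 had the lowest difference from the vector among the members above the filter. It is anchored in membranes of the endoplasmic reticulum, as is TRIM13. It read 7.57 with the empty vector, and 7.11 and 7.17 with miR-146a, so both miR-146a values lay below the vector. The miR-146a mean was 7.14 ± 0.05 (SD, n = 2) and the mean difference -0.42, with a limma standard error of 0.0477 (adjusted p = 0.161, or 0.0145 with the prior from unequal replicates). A further probe set annotated to TRIM59 and to its neighbour IFT80 together differed by -0.19 and -0.34. TRIM13, a ligase of ER-associated degradation, differed by 0.10, and its 3 probe sets above the filter ran from -0.04 to 0.17.

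TRIM52, a ligase that ends after its B-box and coiled-coil region without a C-terminal domain, read 6.83 in the vector array and 6.42 in both miR-146a arrays. Those replicate values were exactly equal, which gave a limma standard error of 0.00747 (adjusted p = 0.118, or 0.0164 with the prior from unequal replicates). A further set, likewise above the filter, gave -0.01 and -0.28 in replicates 1 and 2, a mean of -0.14. TRIM8, of the same class, a regulator of STAT and NF-kB signalling, differed by 0.18, and its 4 probe sets above the filter ran from 0.00 to 0.21. TRIM31, which is known from gastrointestinal epithelium and targets the adaptor MAVS, differed by 0.13 in replicate 1 and by -0.13 in replicate 2.

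Of the SPRY-domain ligases placed in no other class, 13 were above the filter, 5 higher and 5 lower in both arrays. Each share was 38.5%, against 40.2% of all genes higher and 28.8% lower. TRIM27 read 8.71 with the empty vector, and 9.04 and 8.99 with miR-146a. TRIM27, first found fused to the RET kinase, had 3 probe sets above the filter, and all were higher, with mean differences from 0.16 to 0.37. Its difference of 0.31 just missed the threshold with the prior from unequal replicates (adjusted p = 0.0553; 0.155 with limma as specified). TRIM47 read 8.03 with the empty vector, and 8.35 and 8.27 with miR-146a, a difference of 0.28 from its only probe set.

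TRIM11 gave opposite answers from its 2 probe sets. In the set used it read 8.13 in the vector array and 8.38 in both miR-146a arrays, a difference of 0.25. The other set, also above the filter, read 6.17 with the empty vector, and 5.87 and 5.92 with miR-146a, a difference of -0.27. Averaged, they left -0.0089, so no direction can be given for the gene.

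TRIM7, which binds glycogenin and viral proteins, read 7.18 with the empty vector, and 6.92 and 7.06 with miR-146a. TRIM50 differed by -0.17 and TRIM68, a coactivator of the androgen receptor, by -0.09, each from 1 probe set above the filter. TRIM15, an epithelial member of the MHC cluster, was at -0.13 in the set used and at 0.08 and 0.09 in its other sets. TRIM4 differed by 0.01 in the set used and by -0.33 and 0.14 in its other sets above the filter.

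The members without a RING finger, which therefore lack the usual site for an E2 enzyme, were all above the filter. Of these 5 members 4 were higher in both arrays (80%, against 40.2% of all genes) and TRIM66 was lower (against 28.8%). TRIM16, which acts in the autophagy of damaged membranes, read 7.84 with the empty vector, and 8.15 and 8.09 with miR-146a. Its difference of 0.28 had an adjusted p of 0.212 with limma, and 0.0814 with the prior from unequal replicates. TRIM16 has a near copy, TRIM16L, whose signal could be shared, and the TRIM16L probe set above the filter differed by 0.01. TRIM29, an epithelial keratin-linked protein, read 10.14 with the empty vector, and 10.23 and 10.21 with miR-146a, whereas a second set differed by -0.60 and -0.16 and another by -0.05. TRIM44 differed by 0.11, with other sets at -0.06 and 0.09.

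COS-box members, which bind microtubules or muscle filaments, were mostly below the filter. TRIM9, TRIM42, TRIM54, TRIM55 and TRIM63 had no probe set above it. Of the 3 that passed, TRIM67 differed by -0.18 and TRIM36 by -0.13, both with equal replicate values, and TRIM46 by 0.00. TRIM37 and TRIM45 are not COS-box members and were listed among those whose C-terminal domain occurs in a single member. TRIM37, a ligase that limits centrosome assembly, differed by -0.15 and -0.04. TRIM45 held the same value, 5.71, in all 3 arrays.

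**Figure D4:**
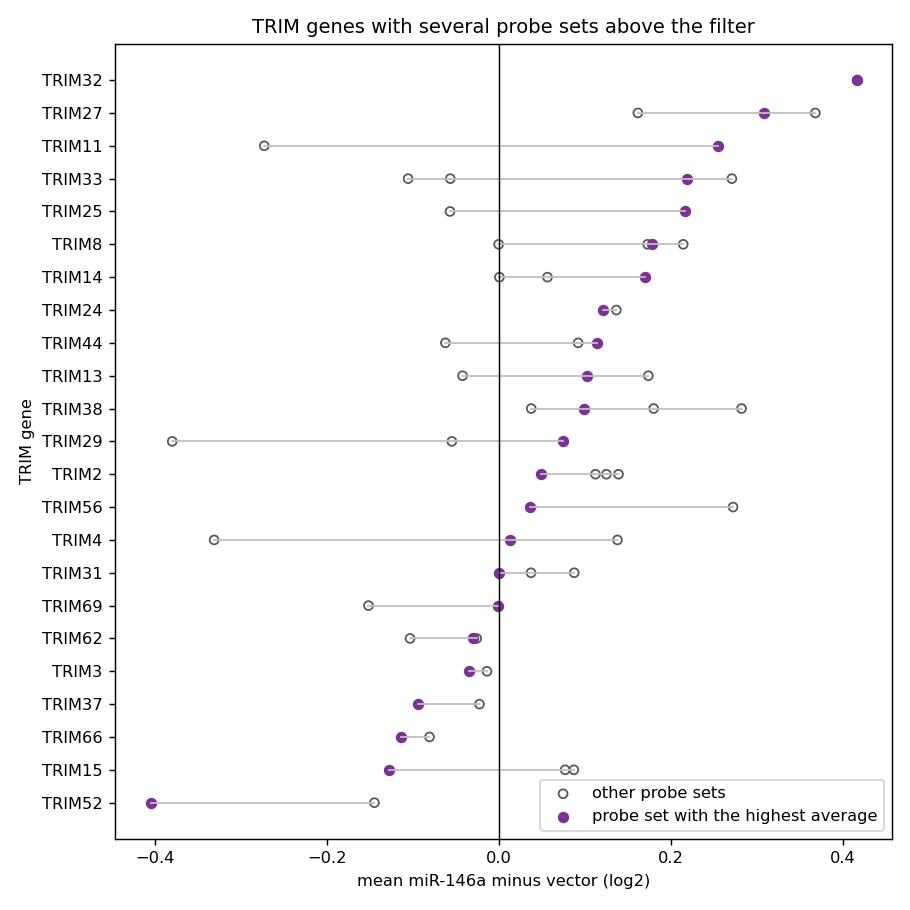
Each row is 1 of the 23 TRIM genes with several probe sets above the filter, and each point is the mean log2 difference of 1 probe set, filled for the set with the highest average. The probe sets of TRIM32 coincide at 0.42, while those of TRIM11 lie at -0.27 and 0.25.

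Probe sets of a gene did not always share a direction. Of the 23 members with several sets above the filter, 13 had all of them on the same side of 0 and 10 did not. Counted by probe set, 40 of the 82 above the filter were higher and 18 lower in both arrays; over all probe sets with 1 gene above the filter, 36.7% were higher and 32.6% lower. Near the filter, TRIM50 averaged 5.13, TRIM36 5.18 and TRIM61 5.36 just above it, and TRIM6 5.06, TRIM17 4.86 and TRIM22 4.82 just below. Among the 13 members below it, both miR-146a values lay above the vector for 6 and under the vector for 4. No matching share is given for all genes below the filter, so that count is no result about the family. These 13 were TRIM6, TRIM9, TRIM17, TRIM22, TRIM40, TRIM42, TRIM51, TRIM54, TRIM55, TRIM58, TRIM63, TRIM71 and TRIM72, and none was tested. Of the members above the filter not yet described, TRIM10, TRIM35, TRIM61, TRIM62 and TRIM65 had mean differences from -0.03 to 0.14.

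Neighbouring TRIM genes had unlike values. In the MHC region of chromosome 6, TRIM26 was at 0.42, while TRIM31, TRIM10 and TRIM15, whose starts lie within 1 Mb of the next member, were at -0.00, 0.02 and -0.13. On chromosome 11, TRIM21 was at 0.46, with TRIM68 at -0.09, TRIM5 at 0.11 and TRIM3 at -0.04. TRIM52 on chromosome 5 was at -0.40 and its neighbours TRIM7 and TRIM41 at -0.19 and 0.07. These groups were looked at after the values were seen and were not tested.

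The machinery around the ligases gave the following. Of 10 E1 and E2 enzymes used by TRIM ligases above the filter, 5 were higher and 2 lower in both arrays, with a median of 0.03. These shares, 50% and 20%, stand beside 40.2% and 28.8% of all genes. UBE2L6, the E2 enzyme for ISG15, read 6.39 with the empty vector and 7.57 and 7.45 with miR-146a, a difference of 1.12. UBE2E2 was at -0.24, UBA1 at 0.14 and UBE2D4 at 0.12. The other UBA1 set above the filter was at -0.13, and the other UBE2D4 sets above it ran from 0.03 to 0.47. With the prior from unequal replicates UBE2L6 alone of the 10 passed (adjusted p = 6.53e-05), beside 4.76% of all genes upward. None of the 10 passed limma as specified. UBA1 alone passed with the robust prior (adjusted p = 0.0491), beside 5.1% of all genes. UBE2N, which builds the K63-linked chains used in innate signalling, differed by 0.04. Among the 20 partners and substrates of interferon-linked TRIMs above the filter, 10 were higher and 7 lower in both arrays, with a median of 0.04. Their shares were 50% and 35%, against 40.2% and 28.8% of all genes.

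STING1, the adaptor of cytosolic DNA sensing and a reported substrate of several TRIMs, read 6.60 with the empty vector, and 7.28 and 7.13 with miR-146a. RIGI, the sensor that TRIM25 modifies, read 7.95 with the empty vector, and 8.41 and 8.48 with miR-146a. Other probe sets above the filter were also higher for both genes, at 0.38 for STING1 and at 0.35 and 0.50 for RIGI. Both passed with the prior from unequal replicates (adjusted p = 0.00335 and 0.0072) and neither passed limma as specified. They were the only 2 of the 20 partners and substrates that this prior called, beside 4.76% of all genes upward and 2.36% downward. CPSF6 differed by 0.26, with its other sets above the filter at -0.21 and 0.18, and IFIH1, the sensor MDA5, by 0.21. MAVS, the adaptor below RIG-I, lay at -0.03.

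Of the 15 partners of chromatin TRIMs above the filter 6 were higher and 4 lower in both arrays, with a median of 0.02. These shares, 40% and 26.7%, lay near the 40.2% and 28.8% of all genes. None passed limma as specified or with the prior from unequal replicates. SMAD2, with equal replicate values, passed with the robust prior (adjusted p = 0.0445), as did 5.1% of all genes. SETDB1, the histone methyltransferase recruited by TRIM28, differed by 0.20, MORC2 by 0.21, ZNF91 by -0.19 and SMAD2 by 0.18, with other SMAD2 sets above the filter from -0.20 to 0.14. Of TRIM proteins under other symbols, PML, the organiser of nuclear bodies and an interferon-induced gene, held 7.29 in all 3 arrays in the set used, while its other sets above the filter ran from -0.07 to 0.35. MID1, a microtubule-bound ligase, differed by 0.25 in replicate 1 and 0.00 in replicate 2, with its other sets above the filter at -0.27 and 0.04.

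All 3 arrays carried the colon epithelial markers, with 11 of 12 above the filter and a summed level (log2) of 15.63 to 15.65, most of it from KRT18 and KRT8. Single markers differed more. Of the 11 above the filter 4 were higher and 6 lower in both miR-146a arrays, beside 40.2% and 28.8% of all genes. CEACAM5 lay at -1.35, the lowest difference of all genes above the filter, CDH17 at -0.54 and KRT20 at -0.24. The part of these in the TRIM values was not tested. The leukocyte list had 3 of 5 measured markers above the filter and a sum of 12.76 to 12.98, nearly all from LYZ, while PTPRC read 3.43 in the vector and 3.30 to 3.36 otherwise. Of fibroblast markers 2 of 6, of endothelial markers 1 of 4 and of muscle markers 2 of 3 passed the filter, with sums of 7.89 to 8.01, 6.62 to 6.66 and 6.80 to 6.92. The control sets at the 5′ end of ACTB and GAPDH differed from the vector by -0.18 to -0.32 with miR-146a, and those at the 3′ end by -0.03 to 0.05. The part of this in the TRIM values was not tested.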

How the data were processed

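Total RNA of the transduced cells was hybridised as biotin-labelled cRNA to Affymetrix arrays, per the labels' protocols. The authors deposited log2 values; the submitters' processing notes name RMA, and its version and the arrays processed together are not given here. No detection calls were used here, and the number of arrays limits the precision.

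Arrays were grouped by their titles. Probe sets were named from the platform annotation, updated by Entrez number to RefSeq. Of 54613 non-control probe sets 41091 had 1 gene, 1801 had several and 11721 had none here; those with several or none were not used for members, which left 12 listed TRIM genes unmeasured. Each gene was represented by its probe set with the highest average of both group means. Differences are miR-146a mean minus vector, and SDs are over the 2 miR-146a arrays. Genes were tested with limma 3.58.1 (R 4.3.3; two-sided, Benjamini-Hochberg over 12444 genes, threshold 0.05), and the fit was tested on simulated data with and without equal replicate values: without them each prior recovered most changes, and with them only the prior from unequal replicates did. The prior from unequal replicates was fitted on genes whose miR-146a values differ and applied to all. The simulated spread came from the same genes, so recovery by this prior was built into the simulation. Of the simulated calls, 27 of 216 were false without ties for each prior, and 6 of 185 with ties for this prior. Promoter and microRNA sequences came from RefSeq tables (GRCh38.p14).

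The members and lists were chosen with earlier results of these data known. Named with values were all interferon-linked and chromatin TRIMs, the 8 highest and 8 lowest members by the smaller of their array differences, the largest of each class, the 3 on either side of the filter, members whose probe sets differ in sign by at least 0.2, and up to 4 partners per list. TRIM2, TRIM3, TRIM4, TRIM8, TRIM10, TRIM13, TRIM15, TRIM29, TRIM31, TRIM35, TRIM41, TRIM44, TRIM45, TRIM46, TRIM62, TRIM65, UBE2N, MAVS, PML and MID1 were added after their values were seen. Alternatives were other probe set summaries, filters (none, percentile 70), normalizations, priors, a wider membership and leaving out a replicate. Figures were drawn with matplotlib 3.10.9.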

Additional observations from a re-analysis of the deposited data

How the results depend on the processing

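The count of TRIM genes called was 0 by limma as specified, and also with all of a gene's probe sets averaged, without a filter, with a filter at percentile 70, with quantile or cyclic loess normalization on top, with an intensity trend, with every probe set tested separately, and with symbols that carry letters allowed. It was 5 with the prior from unequal replicates, 3 higher and 2 lower (7.14% and 4.76%, against 4.76% and 2.36% of all genes). With a robust prior it was 6 (14.3%, or 10% without TRIM36 and TRIM50, against 5.1%). With every probe set separate and the prior from unequal replicates, a setting chosen after seeing the data, 8 TRIM probe sets passed. The share of all probe sets that passed there is not given, so that count is no result about the family. With both miR-146a arrays kept, members higher in both numbered 18 to 26 against 20, and members lower in both 6 to 15 against 11. The highest counts came without a filter, over all 55 members, and no share of all genes is given for that setting. The lowest came from the filter at percentile 70, which kept 29 members. The median difference of 0.043 became 0.099 with that filter and 0.034 with quantile normalization, and leaving out either replicate gave 0.049 to 0.063. In the 1 miR-146a array then left, 23 and 24 members were higher than the vector and 15 and 16 lower. TRIM11 turned to -0.0089 when its probe sets were averaged, as they have opposite signs, and TRIM38 to -0.0012 without replicate 1. Of the 26 members above the filter that were named by rule, no other changed sign under these settings. Members added after their values were seen were not in that check, and several of them do change sign. Averaging all probe sets turned TRIM29 from 0.07 to -0.12 and TRIM3 from -0.04 to 0.14. It also turned TRIM15 from -0.13 to 0.01, TRIM10 from 0.02 to -0.07 and TRIM4 from 0.01 to -0.04. TRIM31 was at 0.13 in replicate 1 and at -0.13 in replicate 2. Without a miR-146a array no residual degrees of freedom remain, so no call can be made there. No paired analysis was possible because the vector group has 1 array and the titles give it no replicate number. Signals near the filter cannot be told from background, which limits TRIM22, TRIM36, TRIM50 and the second probe set of TRIM32.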

Other observations

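Several probe sets are annotated to TRIM genes together with other genes and entered no comparison. The set shared by STAG3L2, STAG3L3 and TRIM73 read 6.09 with the empty vector, and 6.64 and 6.37 with miR-146a. The sets shared by TRIM39 and its readthrough transcript read 6.88 with the empty vector, and 7.18 and 6.96 with miR-146a, and 8.78 against 8.85 and 8.79 where RPP21 is also named. The brighter set of TRIM73 and TRIM74 held 6.13 in all 3 arrays. TRIM52-AS1, the antisense transcript beside TRIM52, had 2 sets above the filter with mean differences of 0.05 and -0.04.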
